A study of Homo sapiens with 12 samples.

Results

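The 55 genes described here encode the proteins that copy nuclear DNA. They were chosen by name as the DNA replication machinery, and all 55 were found among the 44659 rows of the count table. They fall into 9 groups by role, namely the origin recognition complex (ORC, 6 genes), licensing factors (3), the MCM2-7 helicase (6), factors of origin firing (10), replicative polymerases and primase (10), the sliding clamp, its loader and the enzymes of the lagging strand (8), the single-strand binding complex RPA (3), fork factors (4) and proteins that restore chromatin and DNA methylation or untangle DNA behind the fork (5). RNA was sequenced from A375, a human melanoma cell line with an activating BRAF mutation, in 12 libraries that form 2 experiments with 3 libraries in each group. In the first, cells received MAPKi, a combination of the BRAF inhibitor vemurafenib (500 nM) and the MEK inhibitor cobimetinib (500 nM), for 24 h, or DMSO. In the second, cells were kept for 24 h in medium without glutamine (Gln-depleted) or in CTRL medium with 2 mM glutamine. All groups come from this 1 line, so that the libraries are repeats of 1 genetic background.

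Replication of each stretch of DNA starts at an origin, which ORC binds. CDC6 and CDT1 load the ring of MCM2 to MCM7 there during G1 phase, a step called licensing, and geminin (GMNN) blocks CDT1 later. In S phase the kinase CDC7 with its activator DBF4, and TICRR, TOPBP1, MCM10, CDC45 and the GINS complex turn the loaded rings into moving helicases. Polymerase alpha and primase begin each strand, polymerases epsilon and delta extend it, and PCNA, loaded by replication factor C, holds them on the template. Many of these genes are transcribed mainly as cells pass from G1 into S phase, under control of the E2F family of transcription factors, which growth signalling through cyclin D and its kinases releases from the retinoblastoma protein.

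Promoter sequence was examined first because all members share this role in S phase. RefSeq promoter windows (GRCh38.p14, 250 bases before to 50 after a start) were at hand for 49 of the 55 members, with 65 windows in all. The E2F motif was searched on both strands as TTTCCCGC, TTTCGCGC, TTTGCCGC and TTTGGCGC. It was present in 24 of the 49 members (49.0%) and in 6.62% of the 10240 tested genes with a window, and in 3.31% of all 35116 windows. With the first T of each word left out, a search that includes every match to the longer words, it was present in 36 of 49 members against 25.1% of tested genes. CCAAT, the letters bound by the factor NF-Y, was present in 28 members (57.1%, against 43.7% of tested genes). The cell cycle homology region of late cell cycle genes (TTTGAA or TTCGAA) was present in 4 members (8.16%, against 16.1%). These matches are letters in a window and were not tested as binding sites.

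The 160 bases before a start are shown for 6 members, on the strand of the gene and with every match to the longer E2F words in capitals. MCM6 holds the most matches, since its 2 stretches of 12 letters each match on both strands. CDT1, GINS2, PCNA and POLE stand for the licensing, firing, clamp and polymerase groups with 1 match each. PCNA is shown at the start that has the match, and its other listed start has none. ORC4, the member that changed least with MAPKi, is shown at 1 of its 2 listed starts, and neither start has a match.
MCM6, chr2:135876444-135876603, minus strand: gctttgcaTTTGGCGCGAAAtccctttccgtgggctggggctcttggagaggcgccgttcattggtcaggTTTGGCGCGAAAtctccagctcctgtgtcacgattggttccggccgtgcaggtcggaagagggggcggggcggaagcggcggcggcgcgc
CDT1, chr16:88803629-88803788, plus strand: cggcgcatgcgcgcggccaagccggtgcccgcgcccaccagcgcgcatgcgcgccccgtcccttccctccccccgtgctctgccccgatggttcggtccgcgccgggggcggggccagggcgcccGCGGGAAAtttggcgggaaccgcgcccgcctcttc
GINS2, chr16:85688955-85689114, minus strand: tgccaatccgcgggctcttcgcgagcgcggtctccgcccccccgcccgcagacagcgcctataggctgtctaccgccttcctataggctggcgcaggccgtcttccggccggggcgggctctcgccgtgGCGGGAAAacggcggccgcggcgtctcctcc
PCNA, chr20:5126623-5126782, minus strand: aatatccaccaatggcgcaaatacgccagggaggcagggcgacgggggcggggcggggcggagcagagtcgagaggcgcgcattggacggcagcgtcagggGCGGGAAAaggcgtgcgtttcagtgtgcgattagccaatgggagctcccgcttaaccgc
POLE, chr12:132687343-132687502, minus strand: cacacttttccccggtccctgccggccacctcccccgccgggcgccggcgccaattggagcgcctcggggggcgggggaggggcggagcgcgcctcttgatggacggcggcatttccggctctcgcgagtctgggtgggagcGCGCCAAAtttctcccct
ORC4, chr2:148020738-148020897, minus strand: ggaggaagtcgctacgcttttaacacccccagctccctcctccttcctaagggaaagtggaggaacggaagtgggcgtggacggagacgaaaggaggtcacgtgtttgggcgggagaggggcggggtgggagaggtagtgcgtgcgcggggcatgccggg
The 24 members with a match had a median log2 fold change of -2.14 with MAPKi (range -3.33 to -0.52), and the 25 without one -1.58 (range -3.52 to -0.05). With Gln depletion the medians were -0.90 and -0.80. These ranges overlap almost wholly, and MCM10, with the largest fall of all members, has no match to the longer words.

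The deposited values were read counts per gene, between 31056296 and 40071368 a library. The members took 0.628 to 0.662% of the counts of DMSO libraries and 0.210 to 0.220% of those of MAPKi libraries. They took 0.590 to 0.677% in CTRL medium and 0.284 to 0.379% in Gln-depleted libraries. The small nuclear RNA RN7SK took 3.95 to 4.40% of the counts with MAPKi and 1.93 to 2.15% in DMSO, and 1.99 to 3.79% in Gln-depleted libraries and 1.55 to 2.25% in CTRL medium. Its part in the levels of the members was not tested. Levels below are normalised read counts, that is, counts scaled by TMM factors to a common library size within each experiment. Of the 10 MAPK target genes listed (such as DUSP6), all were lower with MAPKi. All 9 tested genes of the amino acid response list (such as CHAC1) were higher with Gln depletion. Over all tested genes 38.8% were lower with MAPKi and 8.70% higher with Gln depletion. Of the 8 melanocyte markers 6 had a median above 1 CPM (counts scaled to the library total), as did none of 4 keratinocyte and none of 4 leukocyte markers, 1 of 4 fibroblast and 2 of 4 endothelial markers. Nothing in the labels says that the 3 libraries of a group came from separate cultures, so p-values measure the spread between these libraries only. By the labels, replicate 1 of both glutamine groups belongs to experimental batch 1 and the other replicates to batch 2, and the batches differed in level at many members.

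With MAPKi, 51 of the 55 members were downregulated by significantly more than 1.5-fold and none was upregulated (edgeR, adjusted p at most 0.05). Among all 12594 protein-coding genes tested, 18.4% were downregulated and 17.2% upregulated by this rule. Against no change, 54 of 55 were lower and none was higher, where 38.8% and 39.3% of all genes were. No member was higher at an unadjusted p under 0.05 either, and DESeq2 gave the same 51 and 54 as counts. The median log2 fold change of the members was -1.74, beside 0.01 for all tested genes. In 54 members every MAPKi library lay below every DMSO library, which held for 40.2% of all genes. The 4 members not past the 1.5-fold threshold were ORC2, ORC4, ORC5 and CDC7. RNA from a whole culture does not tell fewer cells in S phase from less RNA per cell. The 8 mitosis genes listed (such as CCNB1 and PLK1) were also all lower with MAPKi, with a summed level of 29734 to 30529 against 62157 to 73431 in DMSO. Their part in the fall of the replication genes was not tested.

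**Figure D1:**
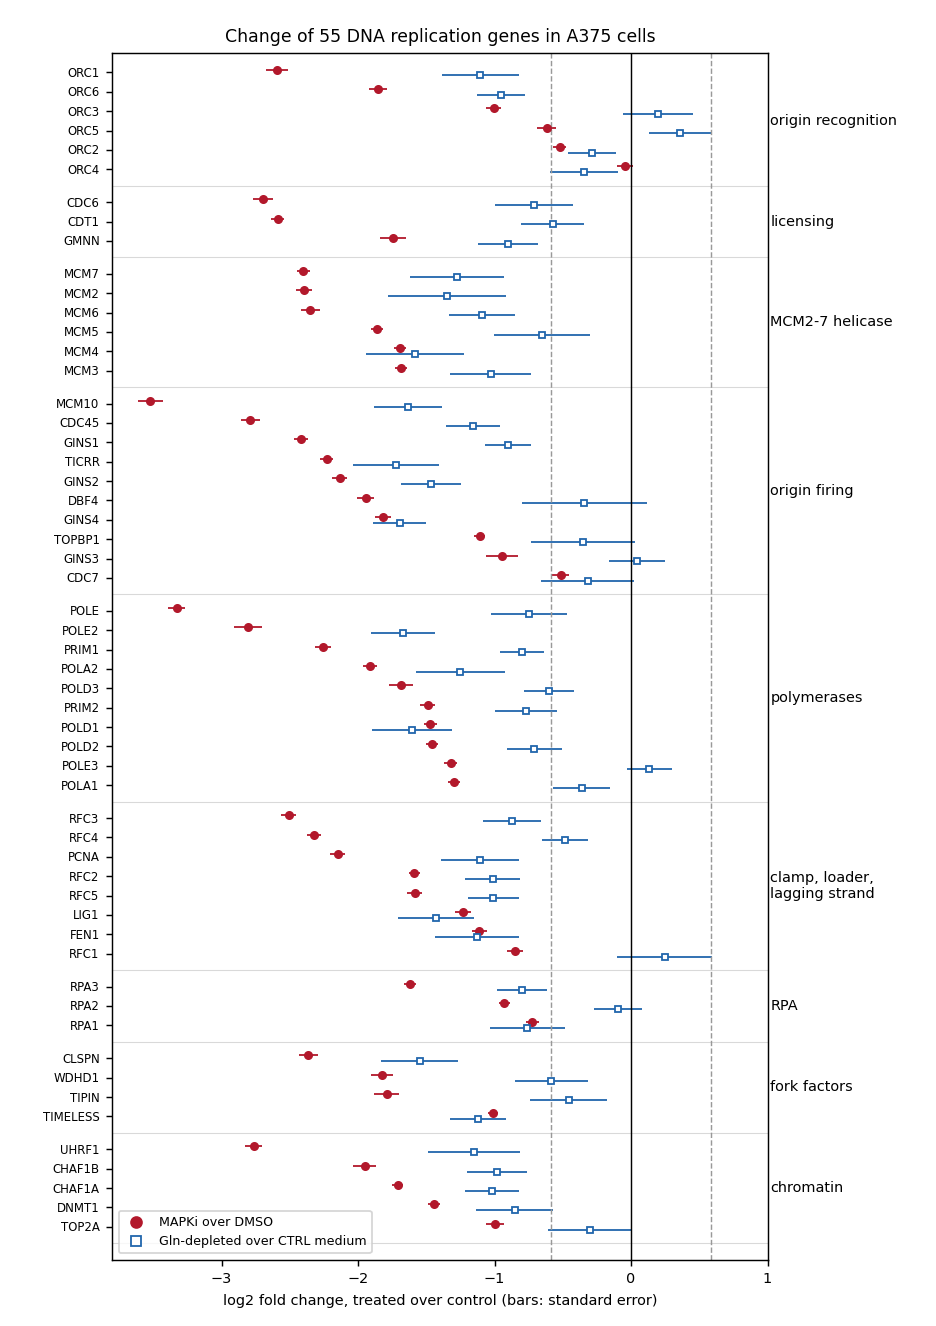
Log2 fold change of each of the 55 members (x axis) with MAPKi (filled circles) and with Gln depletion (open squares), grouped by role, with bars for the standard error and dashed lines at the 1.5-fold threshold. With MAPKi the points lie between -3.52 (MCM10) and -0.05 (ORC4), and with Gln depletion between -1.72 (TICRR) and 0.36 (ORC5).

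With Gln depletion the falls were smaller and the libraries more spread. By the 1.5-fold rule 7 members were downregulated (MCM10, GINS2, GINS4, TICRR, POLD1, POLE2 and CLSPN) and none was upregulated, beside 2.41% and 3.15% of all 12512 genes tested. Against no change 30 of 55 were lower and none was higher (9.76% and 8.70% of all genes), with no member higher at an unadjusted p under 0.05. DESeq2 gave 5 and 34 lower and none higher. The edgeR counts of 7 and 30 moved when single libraries were left out. Such a fit also has a smaller group and batches out of balance between the groups, so the weight of 1 library cannot be told apart from these. Without Gln-depleted replicate 2 they were 1 and 8, without Gln-depleted replicate 3 they were 3 and 13, without CTRL medium replicate 2 they were 1 and 15, and without CTRL medium replicate 3 they were 1 and 12. The 7 became 4 without CTRL medium replicate 1 and 21 without Gln-depleted replicate 1. The median log2 fold change was -0.87, beside -0.03 for all tested genes, and 50 of 55 members had a negative value. Replicate 1 here is of experimental batch 1, and replicates 2 and 3 are both of batch 2. The labels do not say that same-numbered libraries of batch 2 were handled together, but these deviated together (correlations of 0.44 and 0.385). The same comparison was therefore also made within pairs of the same number, with the number as a block. It then gave 27 downregulated members (8.37% of all genes, and 8.20% upregulated), 42 lower (25.2%) and 1 higher, ORC5 (23.6%). The median hardly moved, at -0.86. In 40 members every Gln-depleted library lay below every CTRL medium library, as in 22.3% of all genes. The mitosis list was lower in 3 of 8 genes, and in 8 of 8 within pairs, with a summed level of 22456 to 25047 against 38158 to 45928. Its part was not tested here either.

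The batches gave like patterns from unlike levels. In batch 1, with 1 library a group and so no test, the median log2 ratio of the members was -0.76 and 46 of 55 were negative. In batch 2 alone, with 2 libraries a group, the median was -0.91, 51 were negative, and 42 were lower by edgeR, where 17.0% of all genes were. The fall was larger in batch 2 for 43 members, and the sign was shared by 50. Across the 55 members the batch 1 ratio and the batch 2 fold change had a Pearson r of 0.77 and a Spearman rho of 0.75, a description over genes that are not independent replicates. Neither these values nor the counts of signs were taken over all tested genes, so they cannot be called particular to the members. The level of a member in CTRL medium in batch 1 over batch 2 followed the GC content of its coding sequence, with r = 0.72 over the members and 0.50 over the 12463 tested genes with a coding sequence. DBF4, with 36.2% GC the lowest of the members, had 608 normalised counts in CTRL medium replicate 1 and 1786 and 1640 in replicates 2 and 3. A fold change taken within a batch does not contain this gap. The fit without the replicate block has no batch term, so there the gap adds to the spread between libraries. The members' log2 fold change from that fit also followed GC content (r = -0.40).

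**Figure D2:**
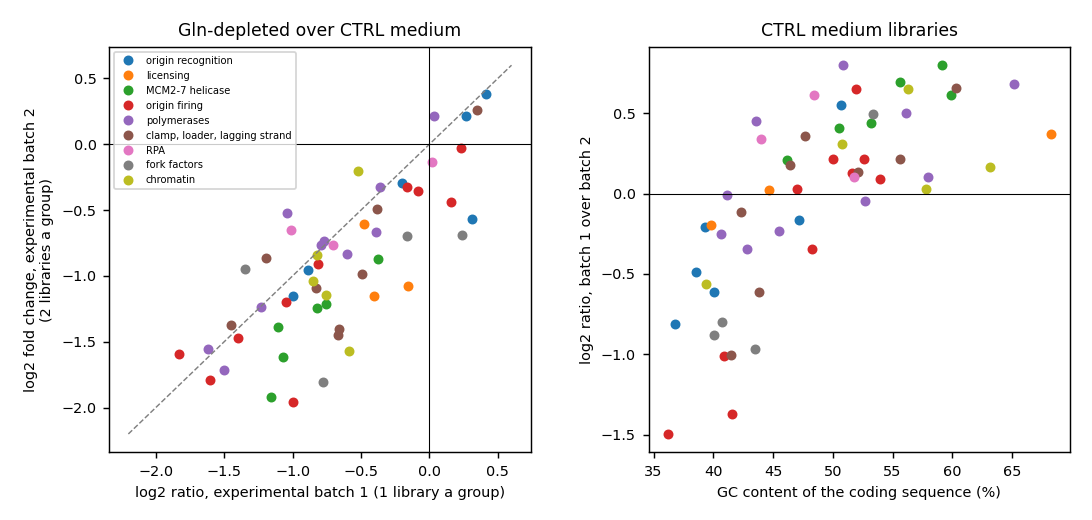
Left, log2 ratio of Gln-depleted over CTRL medium for each member in experimental batch 1 (x axis) against the fold change in batch 2 (y axis), with equal change dashed. Right, log2 ratio of the CTRL medium level in batch 1 over batch 2 (y axis) against the GC content of the coding sequence in percent (x axis), where the members low in GC lie below 0.

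The origin recognition complex had the median nearest to 0 of the 9 groups with MAPKi. Of its 6 subunits 5 were lower, 3 of them by significantly more than 1.5-fold, with a median log2 fold change of -0.81. ORC1, the ATPase subunit whose level is known to vary over the cell cycle, had 1001, 1148 and 1153 normalised counts in DMSO and 185, 187 and 175 with MAPKi. That is a log2 fold change of -2.59 ± 0.08 (SE, adjusted p = 6.73e-09), or 6.03-fold lower, and the groups lay far apart. ORC4 had 1280, 1427 and 1415 in DMSO and 1296, 1398 and 1303 with MAPKi. Its groups overlapped (-0.05 ± 0.06, adjusted p = 0.482), and its sign turned when a GC trend was removed (0.12). Between them lay ORC6 (-1.85), which joins the core subunits loosely, ORC3 (-1.01), ORC5 (-0.62) and ORC2 (-0.52), all lower by the test against no change.

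With Gln depletion only ORC1 and ORC6 of the complex were lower. ORC1 had 1376, 965 and 911 in CTRL medium and 690, 416 and 407 in Gln-depleted cells (-1.10 ± 0.28, adjusted p = 0.0331), with replicate 1 the highest of each group. ORC3 had 946, 1553 and 1333 in CTRL medium and 1136, 1816 and 1450 without glutamine, groups that overlapped (0.20 ± 0.26, adjusted p = 0.614). It was higher in each pair, but its value became -0.01 when a GC trend was removed. ORC5 had 1120, 1726 and 1410 in CTRL medium and 1494, 2156 and 1819 without glutamine. Every pair was higher without glutamine, and within pairs its log2 fold change was 0.37 (adjusted p = 0.026, edgeR), while without pairing it was 0.36 (adjusted p = 0.296). The changes of ORC3 and ORC5 differed between the experiments (differences of -1.19 ± 0.24, adjusted p = 0.00217, and -0.97 ± 0.21, adjusted p = 0.00364). Those of ORC2 and ORC4 did not pass that test.

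**Figure D3:**
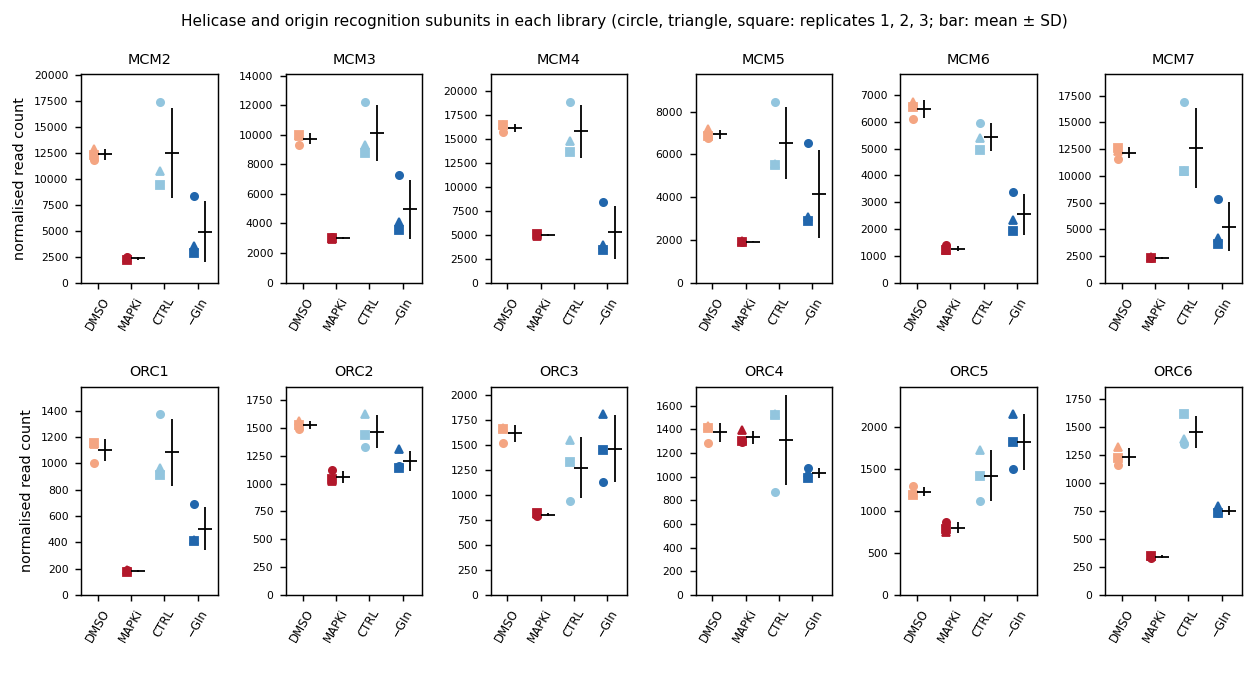
Normalised read count (y axis, from 0) of the 6 MCM2-7 and the 6 ORC subunits in each library of the DMSO, MAPKi, CTRL medium and Gln-depleted (-Gln) groups, with mean ± SD (n = 3). The MAPKi libraries of each MCM subunit lie close together below DMSO, and ORC4 stays level with MAPKi. Within the CTRL medium group replicate 1 is the highest for all 6 MCM subunits. Counts were scaled within each experiment, so levels compare within an experiment only.

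The licensing factors had the lowest median of the groups with MAPKi, -2.59, and all 3 were downregulated. CDC6, the ATPase that loads the helicase with ORC, had 2424, 2781 and 2390 normalised counts in DMSO and 377, 407 and 390 with MAPKi (-2.69 ± 0.07, adjusted p = 3.79e-09). CDT1, its partner, fell by nearly the same (-2.59 ± 0.05). GMNN, the inhibitor of CDT1, had 1238, 1428 and 1395 in DMSO and 456, 347 and 408 with MAPKi (-1.74 ± 0.10, adjusted p = 2.79e-07), the smallest change of the 3. With Gln depletion GMNN had the most negative value of the 3. It had 1217, 1443 and 1345 in CTRL medium and 919, 623 and 602 without glutamine (-0.90 ± 0.22, adjusted p = 0.0293). CDT1 had 3716, 2824 and 2922, and then 2666, 1624 and 2061 (-0.58 ± 0.23, adjusted p = 0.118; within pairs -0.59, adjusted p = 0.00552). CDC6 had -0.71 ± 0.29 (adjusted p = 0.116; within pairs -0.79, adjusted p = 0.0132), from 2971 in Gln-depleted replicate 1 to 1484 and 1540 in the others. All 3 changes were more negative with MAPKi than with Gln depletion by the test of the difference, by 2.00 ± 0.27 for CDT1 (adjusted p = 0.000132) and by 0.84 ± 0.25 for GMNN (adjusted p = 0.0187).

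All 6 subunits of the MCM2-7 helicase were downregulated with MAPKi, within a narrow range of -2.40 to -1.68. MCM7 had 11615, 12331 and 12585 normalised counts in DMSO and 2264, 2363 and 2287 with MAPKi (-2.40 ± 0.05, adjusted p = 1.29e-09). MCM3 had 9286, 9933 and 9971, and then 3075, 2965 and 3041 (-1.68 ± 0.05, adjusted p = 4.20e-09). The libraries of a group differed little and the groups lay well apart. Per kb of the canonical transcript the subunits ran from 1723 (MCM6) to 4936 (MCM7) normalised counts in DMSO and from 338 (MCM6) to 1235 (MCM4) with MAPKi. The highest subunit level thus stood 2.86-fold over the lowest in DMSO and 3.65-fold with MAPKi. One transcript length stood for each gene, so that a level also depends on which isoform the cells use.

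With Gln depletion 4 of 6 MCM subunits were lower, MCM3, MCM4, MCM6 and MCM7, and within pairs all 6 were. MCM4 had 18929, 14840 and 13695 normalised counts in CTRL medium and 8476, 3912 and 3454 without glutamine (-1.58 ± 0.36, adjusted p = 0.022). MCM5 had 8471, 5568 and 5522, and then 6539, 3053 and 2862 (-0.65 ± 0.35, adjusted p = 0.226; within pairs -0.73, adjusted p = 0.00442). The MCM5 groups overlapped because Gln-depleted replicate 1 lay above CTRL medium replicates 2 and 3, while each pair fell. The difference between the experiments was smallest for MCM4, at -0.10 ± 0.41 (adjusted p = 0.87), and its error leaves room for a difference either way. Without Gln-depleted replicate 1 that difference was 0.45. The difference passed the test for MCM5, MCM6 and MCM7 (-1.2, -1.24 and -1.11) and not for MCM2 and MCM3 (-1.03 ± 0.51 and -0.64 ± 0.35, adjusted p = 0.126 and 0.16). With the replicate block it passed for both of these (-0.92 and -0.58, adjusted p = 0.00144 and 0.00769), and for all subunits but MCM4.

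The firing group held the largest fall of all members. MCM10, which helps to open the helicase at the origin, had 1725, 1959 and 1647 normalised counts in DMSO and 165, 137 and 160 with MAPKi. It was 11.5-fold lower (-3.52 ± 0.09, adjusted p = 3.64e-09). CDC7, the kinase that acts on the loaded helicase, had 850, 836 and 891, and then 617, 624 and 563 (-0.52 ± 0.06, adjusted p = 4.34e-05). Its groups did not overlap, but the fall did not pass the 1.5-fold threshold. DBF4, the activator of CDC7, fell by 1.94 on the same log2 scale, so that the 2 partners of 1 kinase changed by unlike amounts. The 4 GINS subunits, which form 1 complex, also differed, from GINS1 (-2.42) and GINS2 (-2.13) to GINS4 (-1.82) and GINS3 (-0.95 ± 0.12). CDC45, which moves with GINS and MCM2-7 as the active helicase, fell by 2.79.

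With Gln depletion 6 of the 10 firing genes were lower, with pairing and without. TICRR, which brings CDC45 to origins, had 3608, 2358 and 2246 normalised counts in CTRL medium and 1186, 659 and 643 without glutamine (-1.72 ± 0.31, adjusted p = 0.011). GINS4 was close to it (-1.70 ± 0.19, adjusted p = 0.00249) and GINS2 at -1.47. GINS3 had 603, 604 and 531, and then 706, 591 and 493, values that overlapped (0.04 ± 0.20, adjusted p = 0.902), and its sign turned in batch 2 alone (-0.03). GINS3 thus changed least of the 4 subunits in both experiments. DBF4, CDC7 and TOPBP1 were below the control on average, but none passed the test (-0.34, -0.32 and -0.35). These 3 genes showed some of the widest gaps between batches. TOPBP1 stood at 3219 in CTRL medium replicate 1 and at 8741 and 7918 in the others. The change differed between the experiments for MCM10 (-1.88 ± 0.27, adjusted p = 0.000236), and not detectably for GINS4 (-0.10 ± 0.20, adjusted p = 0.714). For TICRR it passed only with the replicate block (-0.47, adjusted p = 0.00566; without it -0.49 ± 0.36, adjusted p = 0.302).

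All 10 genes of the polymerase group were downregulated with MAPKi, with a median of -1.59. POLE, the catalytic subunit of polymerase epsilon, had 3926, 4244 and 3984 normalised counts in DMSO and 388, 379 and 438 with MAPKi. It was 10.1-fold lower (-3.33 ± 0.06, adjusted p = 9.74e-10). Its partner POLE2 fell by 2.81 and POLE3, a small histone-fold subunit that also serves in chromatin remodelling, by 1.32. POLA1, the catalytic subunit of polymerase alpha, had 3451, 3472 and 3690, and then 1403, 1467 and 1455 (-1.29 ± 0.04, adjusted p = 1.15e-08), the smallest change of the group. The other subunits of the alpha-primase complex fell further, PRIM1 by 2.26, POLA2 by 1.91 and PRIM2 by 1.49. The 3 polymerase delta subunits lay close together, at -1.68 (POLD3), -1.47 (POLD1) and -1.46 (POLD2).

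With Gln depletion the order within polymerase epsilon was not the same. POLE2 had 489, 600 and 561 normalised counts in CTRL medium and 173, 139 and 206 without glutamine (-1.67 ± 0.23, adjusted p = 0.00483), with the groups well apart. POLE had -0.75 ± 0.28 (adjusted p = 0.0948; within pairs -0.78, adjusted p = 0.00181). POLE3 had 2996, 2984 and 3214, and then 3061, 3551 and 3472 (0.13 ± 0.16, adjusted p = 0.597), with overlap. In the delta complex POLD1, the catalytic subunit, fell by 1.60 and POLD2 by 0.71. In all, 5 of 10 polymerase genes were lower, and 9 of 10 within pairs. POLE had the largest difference between the experiments of all members (-2.57 ± 0.33, adjusted p = 9.99e-05), whereas no difference was detected for POLD1 (0.15 ± 0.34, adjusted p = 0.752).

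The 8 genes of the clamp, its loader and the lagging strand were all downregulated with MAPKi. RFC3, a small subunit of the clamp loader, had 3707, 3838 and 3654 normalised counts in DMSO and 617, 707 and 645 with MAPKi (-2.51 ± 0.05, adjusted p = 1.62e-09). RFC1, the large subunit of the same loader, had 4941, 5084 and 5782, and then 2892, 2920 and 2959 (-0.85 ± 0.06, adjusted p = 1.40e-06), the smallest change of the group. The clamp PCNA fell by 2.15, and FEN1 and LIG1, which trim and seal the pieces of the lagging strand, by 1.11 and 1.23. PCNA has an antisense gene, PCNA-AS1, with 48 to 77 raw counts a library with MAPKi and 183 to 277 in DMSO, against 1263 to 1500 and 5762 to 6552 for PCNA. Whether the counting used strand is not given in the sources used here. In GENCODE 0% of the exon length of PCNA overlapped another gene on either strand. The study used NCBI's annotation, in which the overlap of the 2 genes was not examined, so a mixing of their reads was not tested.

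With Gln depletion 6 of these 8 genes were lower, and 7 within pairs. LIG1 had 2303, 1468 and 1454 normalised counts in CTRL medium and 844, 509 and 591 without glutamine (-1.43 ± 0.28, adjusted p = 0.0136), with no overlap. RFC1 had 2076, 4673 and 3654, and then 2647, 5186 and 4516 (0.25 ± 0.35, adjusted p = 0.648). It was higher in each pair, but within pairs it did not pass the test (0.27, adjusted p = 0.0797). RFC4 was at -0.48 (adjusted p = 0.0825; within pairs adjusted p = 0.0143). For LIG1 and FEN1 no difference between the experiments was detected (0.22 ± 0.32 and 0.03 ± 0.35, adjusted p = 0.622 and 0.962). RFC4 had the smallest adjusted p of the difference of all members (-1.83 ± 0.14, adjusted p = 2.86e-06).

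Of the RPA subunits, all 3 were downregulated with MAPKi, but by less than most members, with a median of -0.93. RPA3, the smallest subunit, had 1840, 1822 and 1863 normalised counts in DMSO and 604, 611 and 585 with MAPKi (-1.62 ± 0.04, adjusted p = 4.31e-09). RPA1, the largest, had 6953, 7350 and 7593, and then 4241, 4448 and 4572 (-0.72 ± 0.05, adjusted p = 1.04e-06). With a GC trend removed RPA1 no longer passed the 1.5-fold threshold (-0.66, adjusted p = 0.0744, edgeR), which left 50 of the 55 members past it. RPA also serves in DNA repair. With Gln depletion RPA3 had 2156, 1691 and 1712 in CTRL medium and 1070, 998 and 1121 without glutamine (-0.80 ± 0.18, adjusted p = 0.0229). RPA2 had 2879, 2620 and 2730, and then 2922, 2490 and 2287 (-0.10 ± 0.17, adjusted p = 0.728), which overlapped. RPA1 was at -0.76 (adjusted p = 0.0913; within pairs adjusted p = 0.00116).

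The fork and chromatin groups were downregulated with MAPKi in all 9 genes. CLSPN (claspin), which carries the checkpoint signal at stalled forks, had 2648, 3128 and 3030 normalised counts in DMSO and 584, 579 and 548 with MAPKi (-2.37 ± 0.07, adjusted p = 6.16e-09). TIMELESS, which stabilises the fork together with TIPIN, had 3971, 3989 and 4043, and then 1977, 2032 and 1946 (-1.01 ± 0.04, adjusted p = 2.10e-08), while TIPIN fell by 1.79. UHRF1, which guides maintenance of DNA methylation, had 3993, 4399 and 3817, and then 594, 618 and 587 (-2.76 ± 0.06, adjusted p = 1.84e-09). DNMT1, the maintenance methyltransferase that UHRF1 recruits, fell by 1.44. TOP2A, a topoisomerase that is also a mitotic gene, had 22659, 22501 and 26286, and then 11600, 12328 and 11853 (-0.998 ± 0.07, adjusted p = 7.68e-07).

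With Gln depletion 5 of these 9 genes were lower, and 7 within pairs. CLSPN had 1606, 2987 and 3303 normalised counts in CTRL medium and 937, 927 and 837 without glutamine (-1.55 ± 0.28, adjusted p = 0.0108), with no overlap. TIPIN had 491, 759 and 1052, and then 578, 519 and 584 (-0.46 ± 0.28, adjusted p = 0.284), and rose in the pair of batch 1 while the other pairs fell. UHRF1 had 5307, 4338 and 5140, and then 3529, 1621 and 1510 (-1.15 ± 0.34, adjusted p = 0.0494). TOP2A had 9570, 16563 and 11725, and then 6666, 13482 and 10515 (-0.30 ± 0.31, adjusted p = 0.513), lower in each pair although the groups overlapped.

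The change itself was then compared between the experiments, as (MAPKi over DMSO) against (Gln-depleted over CTRL medium), over all 12 libraries. It was more negative with MAPKi for 37 of 55 members and more positive for none (edgeR, adjusted p at most 0.05), beside 20.5% and 19.9% of the 12627 genes tested. DESeq2 gave 38 and none, and no member was more positive at an unadjusted p under 0.05. With the replicate block the count was 45 (31.4% and 29.5% of all genes). All 12 libraries shared 1 estimate of the spread, so the p-values rest in part on the tighter MAPKi experiment. Between treated libraries the SD of the member median was 0.02 with MAPKi and 0.22 with Gln depletion. The median difference of the members was -0.92, and -0.01 over all genes. By the test against no change 30 members were lower in both experiments, beside 5.91% of the 12291 genes tested in both. With the Gln experiment taken within pairs it was 42 members and 14.0% of genes. Across the 55 members the changes of the experiments had a Pearson r of 0.56 and a Spearman rho of 0.54, where all genes tested in both had 0.14 and 0.19. The experiments share no libraries, but each was sequenced as 1 batch, so that experiment and sequencing batch cannot be told apart in this contrast.

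**Figure D4:**
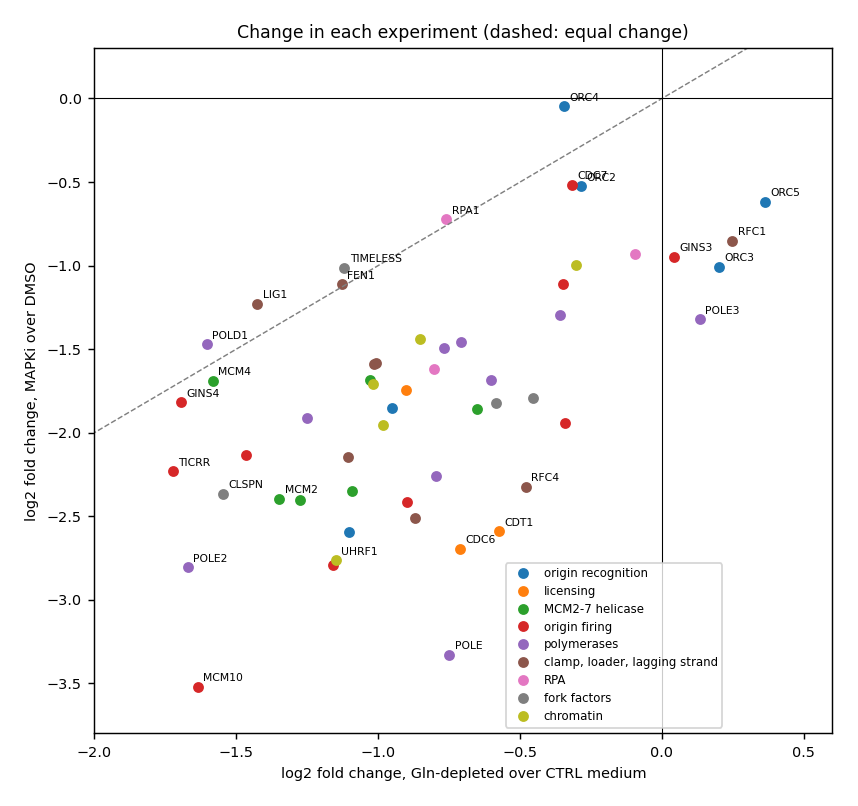
Log2 fold change of each member with MAPKi (y axis) against that with Gln depletion (x axis), coloured by role, with equal change dashed. Most members lie below the dashed line, with POLE furthest from it at -3.33 and -0.75, and FEN1, LIG1, POLD1, TIMELESS, RPA1, MCM4 and GINS4 lie near it.

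With MAPKi 9 members had a log2 fold change above -1, namely ORC2, ORC4, ORC5, CDC7, GINS3, RFC1, RPA1, RPA2 and TOP2A. None of the 9 passed the test with Gln depletion without pairing, and 2 did within pairs (RPA1 lower and ORC5 higher). Of all genes, 9.76% were lower and 8.70% higher without pairing, and 25.2% and 23.6% within pairs. Among so few members these counts cannot set the 9 apart. Their complexes hold partners that fell much further, such as ORC1, DBF4, GINS1, RFC3 and RPA3. The bound of -1 was set after the values were seen, so that no test is given. Per kb of transcript, the highest ORC subunit stood 3.64-fold over the lowest in DMSO and 7.11-fold with MAPKi, where ORC1 became the lowest (58.5 normalised counts per kb) and ORC5 the highest (416). In the firing group the ratio went from 6.77 to 17.1, with MCM10 the lowest with MAPKi (33.9). In the RPA group it went from 1.65 to 3.07. With the clamp and its loader it fell from 8.25 to 4.86, because PCNA, the highest in DMSO (4852), came down to near FEN1 (1220 with MAPKi).

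**Figure D5:**
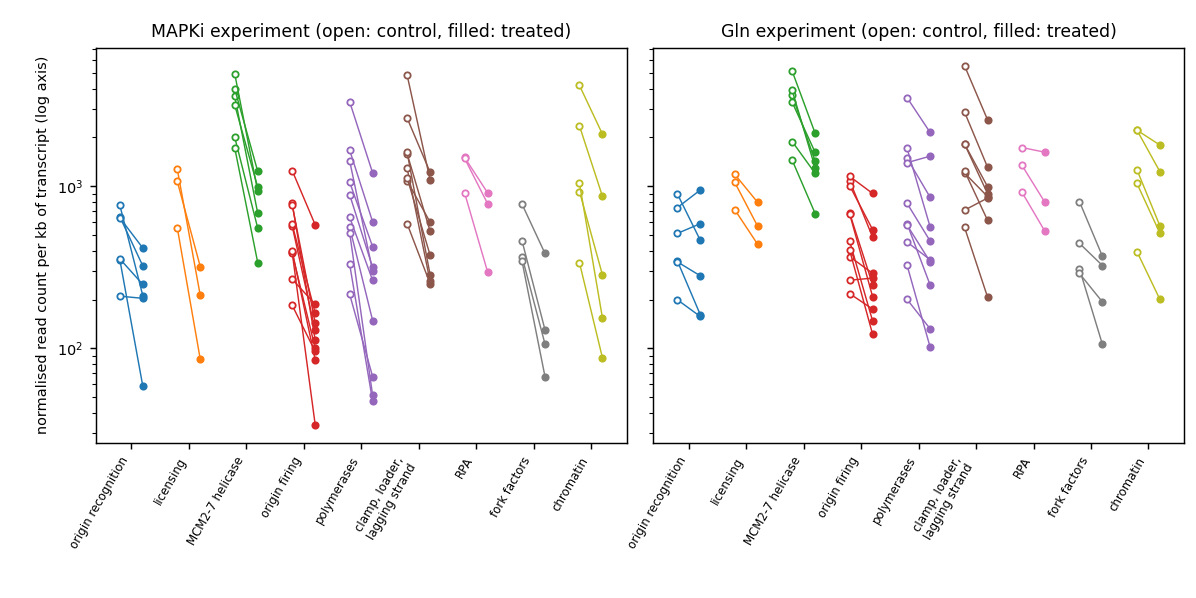
Mean normalised read count per kb of canonical transcript (log y axis) of each member in control (open) and treated (filled) libraries, joined by a line and grouped by role on the x axis. With MAPKi the lines of a group fall by unlike amounts, as from 209.9 to 203.5 for ORC4 and from 353 to 58.5 for ORC1.

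The study asked whether mRNAs that fall encode proteins of particular composition, so the members were described by it. The median protein of the members held 7.93% Glu, 5.49% Asp and 6.74% Lys, beside 6.89%, 4.76% and 5.69% over the 12549 tested genes with a coding sequence. Glu was above the median of all genes in 46 of 55 members, Asp in 38 and Lys in 40. Of the Glu codons, GAA made up 4.14% of the codons of the median member and 2.76% of those of the median gene, while GAG differed less (3.98% and 3.75%). For Asp the values were 2.50% and 2.08% for GAT and both 2.38% for GAC. POLE3 was the richest in Glu and Asp together (25.9%) and POLD2 the poorest (9.71%). Within the members the fold change followed this share hardly at all with MAPKi (r = -0.05, rho = -0.06). With Gln depletion it followed the share weakly, and more by rank (r = -0.10, rho = -0.24). Over all tested genes with a coding sequence the values were r = -0.06 and rho = -0.10 with MAPKi, and 0.01 and 0.03 with Gln depletion. Within the members the fold change followed GC content somewhat more with Gln depletion (r = -0.40, rho = -0.44) than with MAPKi (r = -0.26, rho = -0.21). Over all tested genes these were -0.11 and -0.17 with Gln depletion, and 0.08 and 0.10, of the other sign, with MAPKi. These correlations are over genes that share libraries and base composition, and are descriptions only. The study compared sets of mRNAs, a comparison that correlations within the members do not address.

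Other genes of the pathway were taken from a list of 30 further replication factors. With MAPKi 24 of the 28 tested were lower and 3 higher (38.8% and 39.3% of all genes). Past the 1.5-fold threshold were 20 and 1 (18.4% and 17.2% of all genes). DTL, which marks CDT1 for destruction in S phase, had 3143, 3366 and 3138 normalised counts in DMSO and 344, 326 and 295 with MAPKi (-3.32 ± 0.06), close to the fall of POLE. TONSL, which reads new histones behind the fork, had 1929, 1944 and 1744, and then 348, 334 and 343 (-2.45 ± 0.06). POLD4, the smallest polymerase delta subunit, went the other way to POLD1, POLD2 and POLD3, from 1376, 1479 and 1511 to 2883, 3278 and 3130 (1.09 ± 0.06, adjusted p = 1.96e-07). RNASEH2C, a subunit of ribonuclease H2, rose by less, from 1612, 1567 and 1461 to 2098, 2184 and 2165 (0.47 ± 0.05, adjusted p = 1.21e-05). With Gln depletion 8 of 29 were lower and 1 higher (9.76% and 8.70% of all genes), and 19 and 1 within pairs (25.2% and 23.6%). The gene that rose was the histone chaperone ASF1A, from 436, 1042 and 940 to 1707, 2969 and 2532 (1.58 ± 0.36, adjusted p = 0.0227). POLD4 was next, with 1132, 792 and 902 in CTRL medium and 1127, 1274 and 1419 without glutamine, groups that overlapped (0.43 ± 0.21, adjusted p = 0.171). TONSL had 2235, 1443 and 1653, and then 651, 285 and 413 (-1.98 ± 0.33, adjusted p = 0.00843). ASF1B had the most negative value (-3.98, adjusted p = 0.0577), but it had 559 in CTRL medium replicate 2 and 43 and 33 in the others, against 26.7, 7.89 and 4.77 without glutamine. TONSL and ASF1B each have a second row in the table, so that their reads may be split.

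Regulators of the entry into S phase moved in part with the members. Cyclin D1 (CCND1) had 7982, 9425 and 7533 normalised counts in DMSO and 1105, 1179 and 1136 with MAPKi, but 14762, 17109 and 17575 in CTRL medium and 69829, 66626 and 47666 without glutamine (-2.87 ± 0.09 and 1.90 ± 0.21, adjusted p = 6.59e-09 and 0.00225). E2F1 fell by 2.86 with MAPKi and was at -0.40 with Gln depletion (adjusted p = 0.261; within pairs adjusted p = 0.0383). CDK2 was lower in both (-0.94 and -1.67) and the inhibitor CDKN1A was higher in both (1.05 and 1.45). Of the 9 regulators tested 7 were lower and 2 higher with MAPKi, and 2 were lower and 3 higher with Gln depletion (5 and 3 within pairs). Of all genes, 38.8% were lower and 39.3% higher with MAPKi. With Gln depletion these shares were 9.76% and 8.70% (25.2% and 23.6% within pairs).

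A few members share exon sequence with other annotated genes, which counting may split or join. In 7 of the 55, over 10% of the exon length overlapped another gene in GENCODE. The overlap was on the same strand in POLA2, PRIM1 and TIPIN and on the opposite strand in MCM2, GINS3, GINS4 and RFC5. The study used NCBI's annotation, so these overlaps need not hold for its counts.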

How the data were processed

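RNA-seq of A375 cells was analysed in 12 libraries (4 groups of 3). The counts deposited by the authors are reads per gene, not normalised, made with fastp 0.20.1, HISAT2 2.2.1 and HTSeq 0.13.5 on GRCh38.p13, per the submitters' processing notes. The labels call the RNA cytoplasmic, whereas the methods describe total RNA. From these counts, edgeR 4.0.16 (R 4.3.3, TMM, quasi-likelihood) was fitted within each experiment on protein-coding genes with a mean normalised count of at least 10. Genes were tested against no change and against 1.5-fold (glmTreat), with Benjamini-Hochberg adjustment over all tested genes. Differences between experiments were tested over 12 libraries. DESeq2 1.42.0, other filters and scalings, a GC-trend correction, the replicate block and leaving out libraries were tried. Fits were tested on simulated data.

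The members, roles and gene lists were chosen with earlier results of these data known. Values per library are given for the members with the largest and the smallest change of each role group in each experiment, and for the 2 largest rises and falls among the other replication factors. Same-numbered libraries deviated together in the Gln experiment (correlations over 12512 genes of 0.585, 0.44 and 0.385), where the labels give number 1 one experimental batch and numbers 2 and 3 another. Promoter windows and gene positions came from RefSeq and GENCODE.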

Additional observations from a re-analysis of the deposited data

How the results depend on the processing

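With MAPKi, 51 members were downregulated and 54 lower under leaving out each library, and the block left both counts as they were. The median was -1.68 with the GC-trend correction, -1.67 with the replicate block and that correction, -1.72 with a mean count of at least 100, and -1.81 to -1.71 without 1 library. With the block and the GC correction 1 member was higher, ORC4 (0.12 in both GC fits). In the MAPKi experiment same-numbered libraries correlated by only 0.0687, 0.058 and 0.0563, each best with its own number, and no other call changed there with the block.

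With Gln depletion, 7 downregulated members became 11 with the GC correction, 27 with the replicate block, 31 with both, 26 with experimental batch as a term, 25 in batch 2 alone, 23 in a fit of all 12 libraries and 1 at a threshold of 1. Without 1 library the count was 1 to 21, with 1 when Gln-depleted replicate 2 or CTRL medium replicate 2 or 3 was left out, 3 or 4 without Gln-depleted replicate 3 or CTRL medium replicate 1, and 21 without Gln-depleted replicate 1. The 30 lower members became 49 with the block and GC correction and 8 to 36 without 1 library (8 without Gln-depleted replicate 2, 12 and 15 without CTRL medium replicate 3 and 2, and 13 without Gln-depleted replicate 3). With the block 1 member was higher. ORC3 turned to -0.011 with the GC correction and -0.0077 with block and GC correction, and GINS3 to -0.030 in batch 2 alone and -0.092 to 0.17 without 1 library.

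Of the difference between experiments, 1 member had a more positive change with MAPKi under the block with GC correction and 0 or 1 without 1 library (1 without CTRL medium or Gln-depleted replicate 1). Values near 0 turned sign. With the GC correction, without and with the block, these were ORC2 (0.13 and 0.12), CDC7 (0.069 and 0.072), POLD1 (-0.14 and -0.14) and LIG1 (-0.016 and -0.018). FEN1 was at -0.013 with DESeq2, -0.0086 with its size factors and -0.036 with the GC correction. MCM4 was at 0.015 with the block, 0.036 with the block and GC correction, and 0.014 with experimental batch as a term, an alternative chosen after seeing the data. Without 1 library MCM4 ran from -0.33 to 0.45, CDC7 from -0.40 to 0.059, POLD1 from -0.16 to 0.43, FEN1 from -0.18 to 0.49, LIG1 from -0.077 to 0.48, RPA1 from -0.22 to 0.36 and TIMELESS from -0.092 to 0.24. The cause was not tested. Over the 1595 values of single members under the other settings, 1448 kept their direction and side of the threshold. Of the rest, 110 passed it newly, 18 no longer passed it and 19 turned sign. The 1595 leave out the fits without 1 library. In those fits all 330 values with MAPKi kept both. With Gln depletion 235 kept both, 9 passed newly, 84 no longer passed and 2 turned sign. For the difference between experiments 567 kept both, 10 passed newly, 69 no longer passed and 14 turned sign.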
